A study of Mus musculus with 15 samples.

Results

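Secretory progenitors of the mouse intestinal crypt (Sec-Pro) were enriched in 2 ways, and H3K4me2 was mapped once in each, so that 2 of the 15 samples of the series are described here. In one, Rbpj was deleted (Rbpj-/- Sec-Pro). In the other, mice received the Notch inhibitor dibenzazepine (DBZ Sec-Pro). Both libraries were taken by their labels, and every peak in their lists entered the comparison: 63293 peaks after Rbpj deletion and 92279 peaks under DBZ, of 778471 peaks in the 12 lists of the series. The question was how far a genetic and a chemical block of Notch signalling gave the same H3K4me2 map.

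Notch receptors are cut by gamma-secretase, which frees an intracellular part that enters the nucleus and joins RBPJ, the DNA-binding protein of the pathway, to switch on targets such as Hes1. HES1 represses Atoh1, the gene of the transcription factor that secretory cells of the intestine need. Dibenzazepine inhibits gamma-secretase and so acts on the cut of the receptor, whereas Rbpj deletion removes the factor on DNA, which without Notch can also act as a repressor. Loss of Notch signalling in the crypt is known to turn progenitors towards the secretory fate. H3K4me2 is a histone mark of promoters and enhancers, both active and poised.

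All samples came from C57BL/6 mice, and crypt cells were freed with EDTA after the villi were removed by hand. The labels state no sort for Sec-Pro, no driver or timing of the Rbpj deletion and no dose or duration of DBZ, so the share of other crypt cells in either library is unknown. For comparison, 2 H3K4me2 libraries of enterocyte progenitors (Ent-Pro) from Atoh1-/- crypts showed how far libraries of 1 labelled population differ. H3K4me2 lists of goblet cells (GOB) from Rbpj-/- villi, enterocytes (ENT) from Atoh1-/- villi and Lgr5+ stem cells (ISC), sorted by green fluorescent protein from Lgr5-eGFP-Cre mice, and an ATOH1 list of Sec-Pro, made with an antibody against FLAG, gave each peak its context. GOB and Rbpj-/- Sec-Pro share the loss of Rbpj, so for their overlap genotype and cell type cannot be told apart. The labels do not say which of the Sec-Pro preparations served for ATOH1, H3K27ac and DNase I hypersensitive sites (DHS). The files hold no expression values, so neither the loss of Rbpj nor cell type markers could be checked. With 1 library a side there is no replicate error and no test. Bracketed ranges are 95% intervals that cover counting error only, and neighbouring peaks are not independent of each other. Sequencing depth is unknown.

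The 2 Sec-Pro lists also differed in form. Rbpj-/- Sec-Pro had a shortest peak of 200 bp, a median width of 604 bp and 57.0 Mb covered, against 146 bp, 500 bp and 75.04 Mb in DBZ Sec-Pro. The Ent-Pro lists differed in the same way: replicate 2 had 64138 peaks with a shortest peak of 200 bp, and replicate 1 had 85881 peaks with a shortest peak of 146 bp. In each pair, then, a shorter list with a 200-bp minimum stood against a longer one with a 146-bp minimum, and in Sec-Pro this cannot be told apart from Rbpj deletion against DBZ. The Ent-Pro pair carries the same difference in form with 1 label on both sides, and its values are given for comparison, replicate 2 set against replicate 1.

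Most H3K4me2 regions of Rbpj-/- Sec-Pro were also marked in DBZ Sec-Pro, while the longer DBZ list had many more regions of its own, a balance that depended on list length. Of the Rbpj-/- peaks, 4101 (6.48%, [6.29 to 6.67]) overlapped no DBZ peak by even 1 bp, and these are called Rbpj-own. Of the DBZ peaks, 34709 (37.6%, [37.3 to 37.9]) overlapped no Rbpj-/- peak, and these are called DBZ-own. With the longer list cut by score to the length of the shorter, there were 8628 Rbpj-own and 12766 DBZ-own peaks. At full length the own peaks covered 1.23 Mb after Rbpj deletion and 10.6 Mb under DBZ. In the Ent-Pro pair, replicate 2 had 3277 own peaks (5.11%) and replicate 1 had 28345 (33%), or 6812 and 11849 at equal length. Both shares were thus somewhat higher in the Sec-Pro pair than in the Ent-Pro pair. By bases covered, the intersection over the union was 0.654 for the Sec-Pro pair and 0.688 for the Ent-Pro pair.

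Across lineages, Rbpj-/- Sec-Pro was no farther from the 146-bp Ent-Pro list than from the DBZ list. Only 3121 Rbpj-/- peaks (4.93%) overlapped no peak of Ent-Pro replicate 1, fewer than the 4101 that overlapped no DBZ peak, although the DBZ list is the longer. Against Ent-Pro replicate 2, which has the same 200-bp minimum, 8681 Rbpj-/- peaks (13.7%) were not overlapped. Of the DBZ peaks, 16958 (18.4%) overlapped no peak of Ent-Pro replicate 1 and 32788 (35.5%) none of replicate 2. The intersection over the union was 0.742 for Rbpj-/- Sec-Pro with Ent-Pro replicate 2 and 0.752 for DBZ Sec-Pro with Ent-Pro replicate 1, both higher than the 0.654 between the Sec-Pro lists. Lists that shared neither form nor lineage were at 0.684 for Rbpj-/- Sec-Pro with Ent-Pro replicate 1 and 0.658 for DBZ Sec-Pro with Ent-Pro replicate 2. By this measure of bases, lists of the same form were closer than lists of the same lineage. The Sec-Pro lists were the least alike, also below the pairs that shared neither. By the share of peaks without overlap in the full lists, Rbpj-/- Sec-Pro was nearer to DBZ, with 6.48% against DBZ and 13.7% against Ent-Pro replicate 2. That difference depended on list length. With the DBZ list cut by score to the length of the Rbpj-/- list, 8628 Rbpj-/- peaks overlapped no DBZ peak, close to the 8681 against Ent-Pro replicate 2.

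Own peaks were narrow and of low score. The score is the authors' value for each peak, of a kind not named in the files, and was used only to rank peaks within a list. Rbpj-own peaks had a median width of 255 bp, against 653 bp for the Rbpj-/- peaks that DBZ shared, and DBZ-own peaks 239 bp against 864 bp. In the lowest decile of the Rbpj-/- list by score, 22.1% of peaks were Rbpj-own, in the fifth decile 2.53%, and in the highest decile none of them. Under DBZ, 80.8% of the lowest decile, 46.6% of the fifth and 0.0217% of the highest were DBZ-own. At or above the median score there were 91 Rbpj-own peaks (0.287%) and 3811 DBZ-own peaks (8.18%), against 43 and 1692 own peaks in Ent-Pro replicates 2 and 1. At or above the 75th percentile, 4 of 15870 Rbpj-/- peaks and 34 of 23095 DBZ peaks were own. The strong regions of either library, with these few exceptions, were called in the other too.

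**Figure D1:**
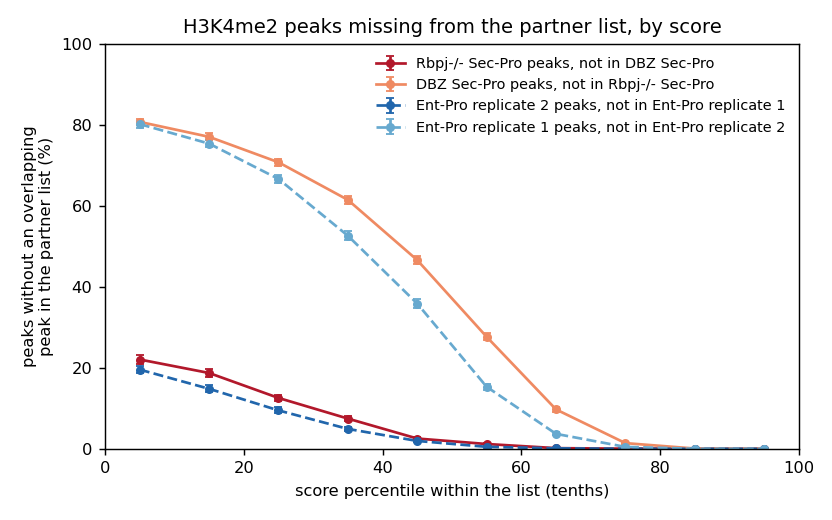
Share of peaks with no overlapping peak in the partner list (percent, vertical axis) for each decile of a list by score (horizontal axis), for Rbpj-/- and DBZ Sec-Pro and for Ent-Pro replicates 2 and 1; bars are 95% counting intervals. In all 4 lists the share is highest among the weakest peaks; after Rbpj deletion it is 22.1% in the lowest decile and nil in the highest, and under DBZ 80.8% and 0.0217%.

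Rbpj-own peaks mostly lay close to DBZ peaks, and DBZ-own peaks more often lay far from any Rbpj-/- peak. Of the Rbpj-own peaks, 2566 (62.6%) lay within 1 kb of a DBZ peak and 407 (9.92%) more than 10 kb from one, with a median distance of 501 bp. Of the DBZ-own peaks, 13054 (37.6%) lay within 1 kb of an Rbpj-/- peak and 10044 (28.9%) more than 10 kb from one, with a median of 2594 bp. In Ent-Pro, 56.8% of own peaks of replicate 2 and 45.6% of replicate 1 lay within 1 kb of the partner, at medians of 513 and 1410 bp. Peaks of 5 kb or wider numbered 403 after Rbpj deletion and 505 under DBZ. None of these broad regions was own to either library, nor was any of the 370 and 621 in Ent-Pro replicates 2 and 1.

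The Rbpj-own and DBZ-own peaks differed in the cell types that shared them. Rbpj-own peaks were found in ENT and GOB more often than DBZ-own peaks were, and in ISC and ATOH1 less often. An ENT peak overlapped 2970 Rbpj-own peaks (72.4%, [71.03 to 73.8]) and 11751 DBZ-own peaks (33.9%, [33.4 to 34.4]), a difference of 38.6 points [37.1 to 40.0]. Over all peaks the shares with an ENT peak were 88% after Rbpj deletion and 69.1% under DBZ. The own peaks of Ent-Pro replicate 2 exceeded those of replicate 1 in the same direction, at 53.0% and 41.8%, with all peaks at 86.5% and 73.3%, a difference of 11.2 points [9.35 to 12.96]. The direction was shared by both pairs, and the Sec-Pro difference was the larger one.

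For GOB the direction was not shared by the Ent-Pro pair. A GOB peak overlapped 2174 Rbpj-own peaks (53.0%) and 11896 DBZ-own peaks (34.3%), a difference of 18.7 points [17.1 to 20.3], against 80.9% and 65.5% of all peaks of these lists. In Ent-Pro the shares were 36.4% for replicate 2 and 40.4% for replicate 1, a difference of -4.02 points [-5.74 to -2.26], with all peaks at 79% and 68.4%. Split by ENT, 2031 Rbpj-own peaks (49.5%) overlapped both GOB and ENT and 143 (3.49%) GOB and not ENT. Among DBZ-own peaks, 7574 (21.8%) overlapped both and 4322 (12.5%) GOB and not ENT. Of all peaks, 78.2% after Rbpj deletion and 59.4% under DBZ overlapped both, and 2.67% and 6.14% GOB and not ENT. In every one of these groups, regions of goblet cells without an enterocyte peak were the smaller class. In the Ent-Pro pair they made up 5.77% and 11.7% of own peaks of replicates 2 and 1. ENT regions without GOB held 22.9% of Rbpj-own and 12.03% of DBZ-own peaks, against 9.78% and 9.72% of all peaks of these lists. The Ent-Pro pair was close to this, at 22.4% of replicate 2 and 13.1% of replicate 1 own peaks, against 10.3% and 10.5% of all peaks.

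Stem-cell regions were rare among Rbpj-own peaks. Of these, 184 (4.49%, [3.89 to 5.16]) overlapped an ISC peak, against 4988 (14.4%, [14.01 to 14.7]) of DBZ-own peaks, a difference of -9.88 points [-10.6 to -9.11]. Over all peaks the shares were 64.3% after Rbpj deletion and 48% under DBZ. The Ent-Pro pair differed in the same direction, by -7.89 points, at 6.87% for replicate 2 and 14.8% for replicate 1, with all peaks at 63.6% and 49.7%. ISC overlap of shared peaks varied with score in both Sec-Pro lists, so own and shared peaks were also set side by side at like ranks. In the lowest quartile of the Rbpj-/- list by score, an ISC peak overlapped 4.27% of Rbpj-own peaks and 33.6% of shared peaks. In the third quartile it overlapped 4 of 87 Rbpj-own peaks (4.60%) and 83.6% of shared peaks. Under DBZ the third quartile had 35.7% of 3512 DBZ-own peaks and 67.8% of shared peaks in ISC. In the lowest quartile the DBZ values were 8.53% of own and 12.9% of shared peaks. The Ent-Pro pair showed the same form of result. Own peaks of replicate 2 had 6.13% in the lowest quartile, against 30.2% of shared peaks, and 6 of 38 (15.8%) in the third, against 83.04%. Own peaks of replicate 1 had 10.1% in the lowest quartile and 36.4% in the third.

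ATOH1 binding was uncommon among own peaks of both libraries. An ATOH1 peak overlapped 74 Rbpj-own peaks (1.80%, [1.44 to 2.26]) and 1320 DBZ-own peaks (3.80%, [3.61 to 4.009]), a difference of -2.00 points [-2.42 to -1.50]. All peaks had shares of 10.7% after Rbpj deletion and 9.07% under DBZ. In the lowest quartile of the Rbpj-/- list by score the gap was smaller: ATOH1 overlapped 1.46% of Rbpj-own and 3.93% of shared peaks. In the third quartile it was not, with 2 of 87 Rbpj-own peaks (2.30%) and 11.3% of shared peaks. Ent-Pro own peaks, from mice without Atoh1, had 1.80% for replicate 2 and 3.43% for replicate 1, a difference of -1.63 points, with all peaks at 10.7% and 9.36%. The gap within the Sec-Pro pair was close in size to that between libraries of cells that lack the factor.

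H3K27ac differed between Rbpj-own and DBZ-own peaks in the same direction as ENT and GOB, whereas for open chromatin the differences were small, at -0.918 points for Sec-Pro DHS and -1.20 for Ent-Pro DHS. H3K27ac marks active regulatory DNA, and the Sec-Pro list of it overlapped 58.7% of Rbpj-own and 30.0% of DBZ-own peaks, against 73.8% and 57.8% of all peaks. The Ent-Pro own peaks had 48.0% for replicate 2 and 34.7% for replicate 1, against 73.6% and 61.4% of all peaks. Ent-Pro H3K27ac overlapped 53.6% of Rbpj-own and 35.8% of DBZ-own peaks, against 77.6% and 62.6% of all peaks, and 52.5% and 39.3% of own peaks in Ent-Pro replicates 2 and 1, against 79% and 66.5%. Sec-Pro DHS overlapped 4.02% of Rbpj-own and 4.94% of DBZ-own peaks, against 35% and 27.1% of all peaks, and 3.39% and 6.94% of own peaks in Ent-Pro replicates 2 and 1, against 34.1% and 27.7%. Ent-Pro DHS overlapped 5.66% of Rbpj-own and 6.85% of DBZ-own peaks, against 39.8% and 31% of all peaks, and 5.52% and 8.78% of own peaks in Ent-Pro replicates 2 and 1, against 39.1% and 31.9%. Own peaks of every library thus lay in open chromatin far less often than all its peaks, without matching for score. Among shared Rbpj-/- peaks, Sec-Pro DHS overlapped 6.88% in the lowest quartile by score and 84.8% in the highest. In the lowest quartile, which held most Rbpj-own peaks, it overlapped 3.18% of them, a smaller gap. In the third quartile it overlapped 11.5% of 87 Rbpj-own and 37.1% of shared peaks. Peaks found in no list outside their pair numbered 226 (5.51%) among Rbpj-own and 7177 (20.7%) among DBZ-own peaks. Over all peaks, whether or not the partner list overlapped them, the shares were 0.683% and 8.01%. In Ent-Pro replicates 2 and 1 the shares were 7.66% and 10.5% of own peaks, against 0.607% and 3.69% of all peaks counted in the same way.

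**Figure D2:**
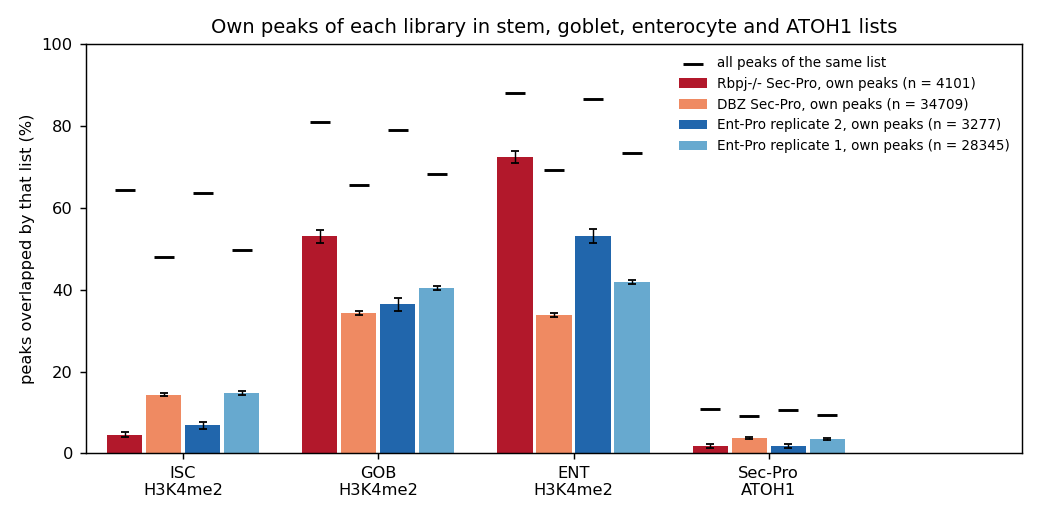
Share of own peaks (percent, vertical axis) overlapped by the ISC, GOB, ENT and ATOH1 lists. Columns are Rbpj-own and DBZ-own peaks and own peaks of Ent-Pro replicates 2 and 1, with 95% counting intervals. Black marks give the share over all peaks of the same list. Rbpj-own peaks have the highest share in ENT (72.4%, against 33.9% of DBZ-own) and a low share in ISC (4.49%, against 14.4%).

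Own peaks of higher score showed the same directions for ENT, GOB and ISC. Of the 91 Rbpj-own peaks at or above the median score, 79 overlapped ENT, 75 GOB and 4 ISC, and 53 were present in both Ent-Pro lists. Counted list by list, 67 were in Ent-Pro replicate 1 and 61 in replicate 2, against 95.1% and 86.3% of all Rbpj-/- peaks. Shared Rbpj-/- peaks of the third quartile had 98.3% in ENT, 94.5% in GOB and 83.6% in ISC, so these 91 own peaks lay below shared ones in all 3. The lowest quartile held 3019 Rbpj-own peaks. There ENT overlapped 69.4% of own and 67.5% of shared Rbpj-/- peaks, and GOB 49.6% and 57.3%, so for ENT own peaks were not below shared ones. Of the 3811 DBZ-own peaks at or above the median score, 48.9% overlapped ENT, 47.9% GOB and 34.7% ISC. Shared DBZ peaks of the third quartile were at 90.3%, 83.5% and 67.8%. Both Ent-Pro lists held 45.3% of the 3811. Counted list by list, 82.9% were in Ent-Pro replicate 1 and 49.9% in replicate 2, against 81.6% and 64.5% of all DBZ peaks. The Ent-Pro pair had 60.5% of 43 peaks in replicate 2 and 68.7% of 1692 in replicate 1 with ENT, 53.5% and 67.8% with GOB, and 16.3% and 36.6% with ISC. All peaks of these 2 lists, not matched for score, had 86.5% and 73.3% with ENT, 79.0% and 68.4% with GOB, and 63.6% and 49.7% with ISC. The ENT difference of the Ent-Pro own peaks at this score was -8.27 points [-23.3 to 5.09], a range that includes 0.

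Looked at from the other lists, sites of each context were found far more often under DBZ alone than after Rbpj deletion alone. Of 68407 ISC peaks, 58426 (85.4%) overlapped a peak in both Sec-Pro lists, 318 (0.465%) in Rbpj-/- only and 7183 (10.5%) in DBZ only. Of 15240 ATOH1 peaks, 7285 (47.8%) were marked in both, 154 (1.01%) in Rbpj-/- only, 1692 (11.1%) in DBZ only and 6109 (40.1%) in neither. Of the ATOH1 peaks in Sec-Pro DHS, 4112 of 5169 (79.6%) carried H3K4me2 in both libraries, and of those outside DHS 3173 of 10071 (31.5%) did. In both Ent-Pro libraries, from mice without Atoh1, 4123 (79.8%) and 3335 (33.1%) of the same sites carried it. ATOH1 sites in open chromatin were thus marked more often than the others in both lineages. Sites marked in 1 Ent-Pro library only numbered 359 for replicate 2 and 6151 for replicate 1 among ISC peaks, and 111 and 1391 among ATOH1 peaks.

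With the DBZ list cut by score to the length of the Rbpj-/- list, the DBZ side still exceeded the Rbpj-/- side at ISC sites, ATOH1 sites and GOB or ENT sites that lacked the other. ISC peaks marked on 1 side only then numbered 1091 in Rbpj-/- and 5407 in DBZ. ATOH1 peaks numbered 273 in Rbpj-/- and 1151 in DBZ, and GOB peaks without ENT 411 and 2778. ENT peaks without GOB were nearer to even, at 1853 in Rbpj-/- and 2678 in DBZ. Between equal-length Ent-Pro lists the same sites were also found more often in the 146-bp list: 954 and 4644 ISC peaks, 200 and 972 ATOH1 peaks, 484 and 2275 GOB peaks without ENT, and 1674 and 2393 ENT peaks without GOB, for replicate 2 only and replicate 1 only. All 4 kinds of site thus leaned the same way in both pairs, in ratios that differed most for GOB peaks without ENT. Sec-Pro H3K27ac peaks were 4458 in Rbpj-/- only and 4892 in DBZ only, against 3011 in Ent-Pro replicate 2 only and 4800 in replicate 1 only.

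Where 1 Rbpj-/- peak met 1 DBZ peak and no other, the Rbpj-/- peak was usually the narrower. There were 38141 such pairs, 60.3% of the Rbpj-/- list and 41.3% of the DBZ list. Their median widths were 650 bp after Rbpj deletion and 850 bp under DBZ, and the median log2 ratio of widths, Rbpj-/- over DBZ, was -0.21 [-0.21 to -0.20]. The Rbpj-/- peak was the wider in 24.0% of pairs. It was at least 2-fold wider in 699 pairs (1.83%), and the DBZ peak was at least 2-fold wider in 3862 (10.1%). The 39192 Ent-Pro pairs had a median log2 ratio of -0.20, with replicate 2 at 652 bp and replicate 1 at 815 bp, and a 2-fold difference in 640 (1.63%) and 3066 (7.82%). Between lists of the same form but opposite lineage the median log2 ratio was 0.01 for both Rbpj-/- Sec-Pro over Ent-Pro replicate 2 and DBZ Sec-Pro over Ent-Pro replicate 1. The typical width difference between the Sec-Pro libraries was as large between libraries of 1 Ent-Pro label, and absent from the median of same-form lists.

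**Figure D3:**
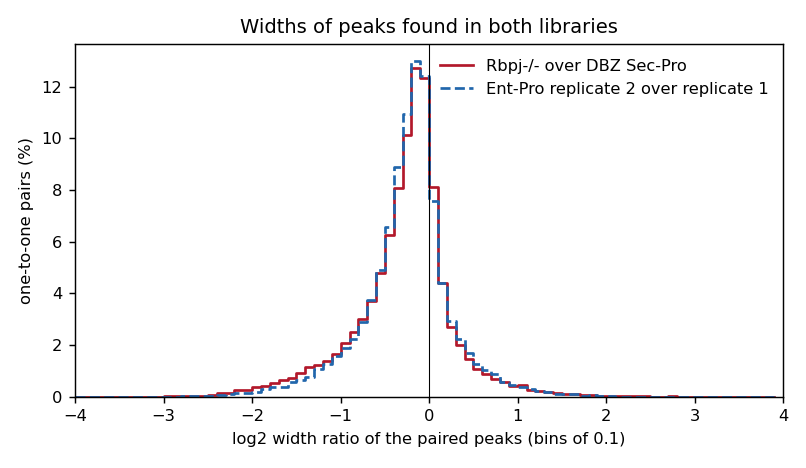
Distribution of the log2 ratio of widths over one-to-one pairs of peaks, as percent of pairs, for Rbpj-/- over DBZ Sec-Pro and for Ent-Pro replicate 2 over replicate 1; values below 0 mean a wider DBZ or replicate 1 peak. The curves lie close together, with medians of -0.21 and -0.20.

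The order of peaks by score was largely shared. Across the 38141 pairs Spearman's rho was 0.881 for score and 0.863 for width, against 0.890 and 0.886 across the 39192 Ent-Pro pairs. Across lineages, rho for score was 0.904 for Rbpj-/- Sec-Pro with Ent-Pro replicate 2 and 0.901 for DBZ Sec-Pro with Ent-Pro replicate 1, so the Sec-Pro libraries were ordered no more alike than Sec-Pro and Ent-Pro lists of 1 form. These correlations are over peaks within libraries, which are not replicates. Ranked from 0 to 100 among the pairs, the peaks of a pair differed by a median of 8.52 points in Sec-Pro and 8.03 in Ent-Pro. A peak stood at least 25 points higher after Rbpj deletion in 1501 pairs (3.94%) and under DBZ in 1642 (4.31%). The corresponding Ent-Pro counts were 1472 (3.76%) for replicate 2 and 1383 (3.53%) for replicate 1.

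**Figure D4:**
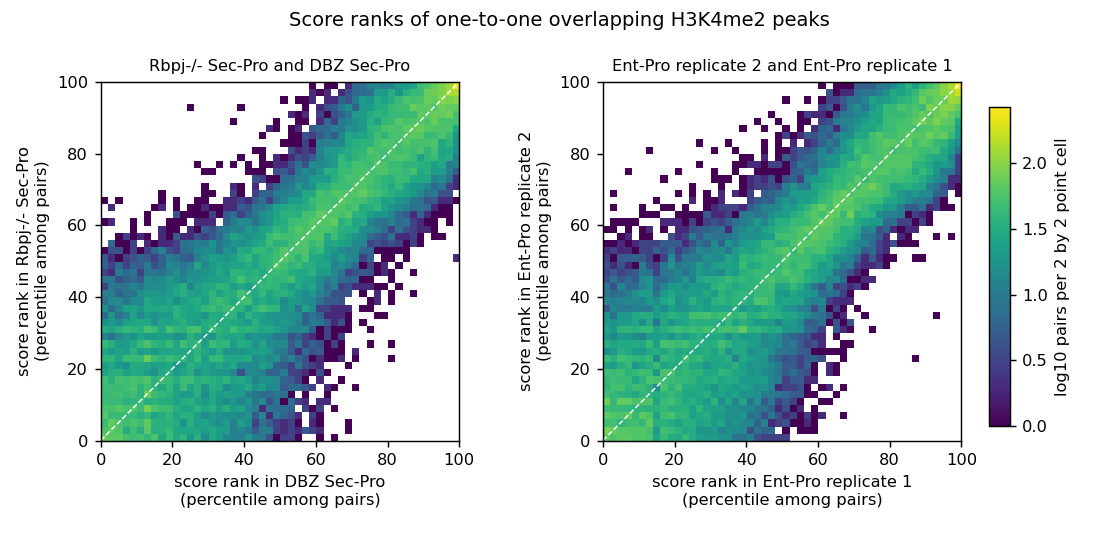
Score rank among one-to-one pairs (0 to 100, both axes), Rbpj-/- against DBZ Sec-Pro and Ent-Pro replicate 2 against replicate 1, shaded by the number of pairs. Both panels show a band along the diagonal, with rho 0.881 and 0.890.

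Which pairs stood higher on which side depended on their context. Pairs that overlapped GOB and not ENT ranked lower after Rbpj deletion than under DBZ, by a median of -6.66 points over 951 pairs, against -1.53 over 1055 pairs in Ent-Pro. Pairs that overlapped ISC and neither GOB nor ENT did likewise, at -5.96 points over 1036 pairs, against -2.13 over 1110 in Ent-Pro. Pairs in GOB or ENT but not ISC ranked higher after Rbpj deletion, at 3.50 points over 9547 pairs, against 1.93 over 10327 in Ent-Pro. Over all pairs the median difference was 0.0891 points in Sec-Pro and -0.232 in Ent-Pro. Pairs with ATOH1 were at 0.535 points over 4429 pairs, against -1.21 over 4528 in Ent-Pro. The median of ATOH1-bound pairs thus lay within 1 point of that of all Sec-Pro pairs.

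Widths followed the same classes. For pairs in GOB and not ENT the median log2 ratio of widths was -0.67 in Sec-Pro and -0.40 in Ent-Pro, and for pairs in ISC and neither GOB nor ENT -0.74 and -0.41. The middle 50% of rank differences of the GOB class ran from -18.4 to 3.23 points in Sec-Pro, so single pairs lay on both sides of 0. Of the 1501 pairs at least 25 points higher after Rbpj deletion, an ISC peak overlapped 33.7% and an ENT peak 91.6%. Of the 1642 pairs higher under DBZ, ISC overlapped 69.7% and ENT 78.1%, against 70.2% and 90.04% of all pairs. Sec-Pro H3K27ac overlapped 77.5% of the pairs higher after Rbpj deletion, 48.8% of those higher under DBZ and 72.9% of all pairs. The Ent-Pro pair differed in the same direction for ISC and H3K27ac. Pairs higher in replicate 2 and in replicate 1 had an ISC peak in 38.7% and 60.8%, against 67.9% of all Ent-Pro pairs. Sec-Pro H3K27ac overlapped 66.6% and 50.3%, against 72.3% of all Ent-Pro pairs. Both shares were below that of all pairs, whereas pairs higher after Rbpj deletion were above theirs. With ENT the Ent-Pro shares were 82.7% and 83.7%, against 88.7% of all Ent-Pro pairs.

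**Figure D5:**
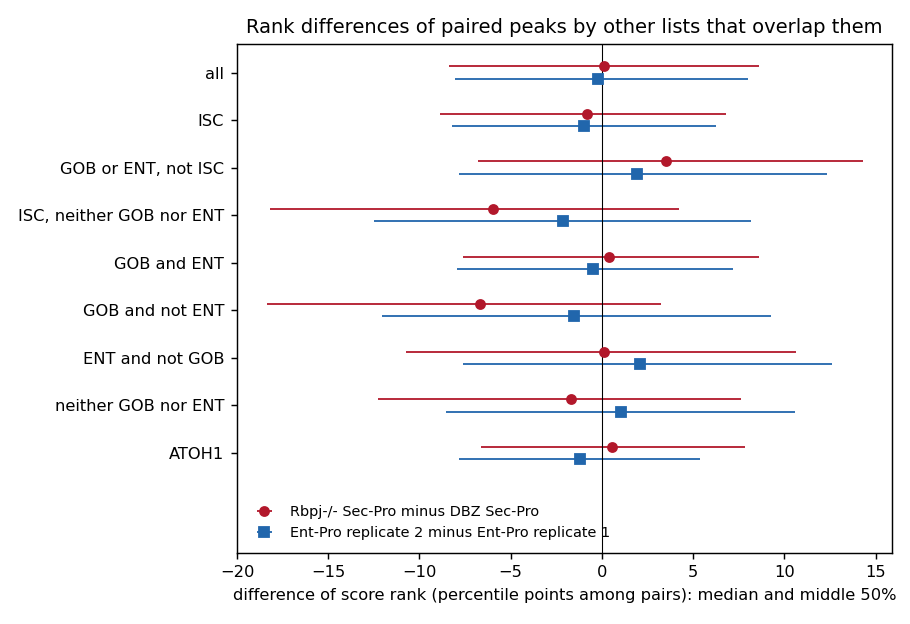
Median difference of score rank (points, first library minus second) with the middle 50% of pairs as bars, by the lists that overlap the pair, for Rbpj-/- minus DBZ Sec-Pro and Ent-Pro replicate 2 minus replicate 1. The classes GOB and not ENT (-6.66 against -1.53) and ISC, neither GOB nor ENT (-5.96 against -2.13) lie lowest in Sec-Pro.

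Single regions show what these classes look like. Positions are those of build mm9, on which no gene annotation was used here, and the regions were chosen by a rule on score, width and rank, so their values are a description. The Rbpj-own peak of highest score lay at chr15:85445174-85446350, a region of 1177 bp with a score of 59.0, at percentile 86.9 of its list. It was 603 bp from the nearest DBZ peak and overlapped GOB, Sec-Pro H3K27ac and the DHS of both progenitors, but neither ENT, ISC nor an Ent-Pro H3K4me2 peak. Next came chr17:39984850-39985781 at percentile 84.7, and nearby chr17:39980005-39983042, the widest Rbpj-own peak at 3038 bp. These 2 peaks were 914726 and 917465 bp from any DBZ peak and overlapped every other list except ISC, ATOH1 included. A stretch marked in all other progenitor and villus lists was thus without a call under DBZ. Without reads, neither repeats nor mappability at this stretch could be checked, so the missing call cannot be read as absence of the mark. The remaining Rbpj-own peaks of highest score were chr13:109082688-109083915, in GOB, ENT and Ent-Pro replicate 1, and chr10:12723688-12724288, in both Ent-Pro lists and both H3K27ac lists. None of these 5 overlapped an ISC peak. Of Rbpj-own peaks with ATOH1, the third by score was chrX:166429409-166429782, in GOB and not ENT, 891 bp from a DBZ peak. Of those in ENT and not GOB, the highest was chr16:65583431-65583768 at percentile 59.8.

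All 5 DBZ-own peaks of highest score overlapped ISC and both Ent-Pro H3K4me2 lists. The highest, chr17:25359560-25360786, had a score of 152.8 at percentile 99.3 of the DBZ list and lay 281 bp from the nearest Rbpj-/- peak. It overlapped GOB, ENT, Sec-Pro H3K27ac and both DHS lists, and not ATOH1. The second, chr4:3500552-3501930 at percentile 91.02, overlapped ATOH1 and GOB and not ENT, 245 bp from an Rbpj-/- peak. It was the highest of the DBZ-own peaks with ATOH1 and also of those in GOB without ENT. The others were chr7:19905569-19906300, 88 bp from an Rbpj-/- peak, chr12:106985881-106986976 and chr6:135106289-135107641, the last in ENT and not GOB. Of these 5, then, 3 lay within 1 kb of an Rbpj-/- peak. The widest DBZ-own peaks were chr7:13908920-13913057 with 4138 bp, chr7:148877058-148880591 with 3534 bp and chr17:31263102-31266509 with 3408 bp, the last of them in GOB and ATOH1 but not ENT.

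Among regions marked in both libraries and at or above the 50th percentile in both, the width differed most at chr15:85568924-85569981, with 1058 bp after Rbpj deletion and 203 bp under DBZ, a log2 ratio of 2.38. Its percentiles were close, at 50.3 after Rbpj deletion and 53.2 under DBZ. In the opposite direction, chr15:61621061-61621380 had 320 bp after Rbpj deletion and 1517 bp under DBZ, a log2 ratio of -2.25. The 6 pairs of most unequal width all overlapped GOB, ENT and both Ent-Pro lists. Percentiles of single regions are within each whole list, not among pairs. On that scale paired peaks had medians of 55.2 after Rbpj deletion and 70.1 under DBZ. The median difference, Rbpj-/- minus DBZ, was -10.6 points. The pair that ranked highest after Rbpj deletion relative to DBZ, chr1:142142027-142143003, stood at percentile 70.6 after Rbpj deletion and 2.57 under DBZ, with 977 and 344 bp. The pair that ranked highest under DBZ relative to Rbpj deletion, chr19:43890024-43890392, stood at percentile 1.42 after Rbpj deletion and 79.4 under DBZ, with 369 and 1165 bp. The 3 pairs that ranked most above DBZ after Rbpj deletion overlapped GOB and ENT and not ISC. Of the 3 that ranked most above Rbpj deletion under DBZ, 2 overlapped ISC, and all 3 overlapped GOB and ENT.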

How the data were processed

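The submitters' processing notes name build mm9, MACS2, Bowtie 0.12.7 and CASAVA 1.7; settings, and any use of input DNA, are not given in the sources at hand. The authors deposited 1 peak list per library, with a score per peak whose kind is not named, and no read counts. The 3 input samples were not analysed here. Nothing in the labels says that replicates came from separate animals.

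Peaks were compared with Python 3.11.15, NumPy 2.4.6 and pandas 2.3.3. An own peak overlapped no partner peak by 1 bp. One-to-one pairs overlapped each other and nothing else. Scores were ranked within a list. Intervals are Wilson (shares), Newcombe (differences) and order-statistic (medians), at 95%. Code was tested on simulated lists.

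Alternatives were overlap of at least 50%, the upper 50% by score, equal length, merging within 1 kb, own peaks over 1 kb away, autosomes only and, added after seeing the data, peaks of at least 200 bp. Regions were named by score (5 highest own peaks a side; 3 highest with ATOH1, GOB without ENT, ENT without GOB), width and rank (3 extremes each way) and own width (3 widest); those not described are of these classes. The comparison, lists and rules were chosen with earlier results of these data known. No gene was named, since the annotation at hand is of another build.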

Additional observations from a re-analysis of the deposited data

How the results depend on the processing

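The alternatives were run for the numbers of own peaks, the width ratio, rho for score and the ISC, GOB, ENT and ATOH1 shares of own peaks, and not for the H3K27ac, DHS, site and rank-class values. In all of them the ISC and ATOH1 shares were lower and the GOB and ENT shares higher in Rbpj-own than in DBZ-own peaks, but the ATOH1 difference in the upper 50% by score, -1.95 points, had an interval of -4.75 to 4.45, which includes 0. Autosomes alone moved no value beyond its interval. With at least 50% of a peak required to be covered, Rbpj-own peaks numbered 6784, the width ratio was -0.17 (log2), rho for score 0.901, and the share differences, Rbpj minus DBZ, were -4.57 points for ISC, 16.4 for GOB, 34.5 for ENT and -0.364 for ATOH1. In the upper 50% by score there were 91 Rbpj-own and 3811 DBZ-own peaks, a width ratio of -0.16, rho of 0.817, and differences of -30.3 points for ISC and 34.5 for GOB. At equal length there were 8628 and 12766 own peaks, with differences of -13.2 points for ISC, 14.3 for GOB, 32.1 for ENT and -3.18 for ATOH1. With peaks merged within 1 kb there were 1639 and 16479, a width ratio of -0.26, rho of 0.890, and differences of -12.96, 15.1, 34.7 and -2.66 points for ISC, GOB, ENT and ATOH1. Own peaks over 1 kb away numbered 1535 and 21655, with -12.2, 21.2, 43.6 and -2.53 points for the same lists; pairs have no value there. With peaks of at least 200 bp only, an alternative chosen after seeing the data, Rbpj-own peaks rose to 5529 and DBZ-own peaks fell to 22274. The width ratio was then -0.21, and the differences were -8.21 points for ISC, 16.4 for GOB and 36.6 for ENT. In Ent-Pro, the ENT difference, replicate 2 minus replicate 1, was -8.27 points in the upper 50% by score, opposite in sign to that over all own peaks, with an interval of -23.3 to 5.09 that includes 0. The cause of these changes was not tested, beyond the smaller or larger number of peaks that each setting keeps by construction.

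No paired analysis was possible because each side has 1 library, so none was left out in turn. The numbers of own peaks moved with list length and score. Without read counts or depth, a region missing from 1 list was only not called there.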
